A study of Mus musculus with 6 samples.

Results

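Nuclear receptors are transcription factors that carry a DNA-binding domain and, in most members, a pocket for a small lipid-soluble ligand. Steroid receptors bind DNA as pairs of the same receptor, many receptors for retinoids, thyroid hormone, fatty acids and sterols bind together with an RXR partner, and a few orphan receptors, among them Rora and the REV-ERB proteins, can bind a single copy of the half-site AGGTCA preceded by A and T bases. In T cells the family is best known for retinoic acid and glucocorticoid responses, for the NR4A genes that switch on after T cell receptor stimulation, and for ROR factors in helper and innate lymphoid cells.

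The genes described here are 42 nuclear receptor genes, chosen by name, which leave out Vdr, Pparg, Rxra and Rxrb and do not cover the whole superfamily. Of these, 40 had a probe set annotated to exactly 1 gene, out of 18193 such genes on the array, and they were represented by 108 probe sets. Nr1h2 and Nr2e3 had no such probe set and were not analysed here, and 1 further probe set, shared by Ppard and another gene, was left out. RNA was compared between regulatory T (Treg) cells of Batf-/- mice and of Batf+/+ mice, on 3 arrays each. Batf belongs to the AP-1 proteins and acts in T cells with Jun partners and Irf4. In both groups the mice were on the C57BL/6 strain and carried a human CD2 reporter of Foxp3, and CD4+ cells positive for human CD2 were taken from lymph node and spleen and used without culture. The labels give no age and no number of mice, and do not say whether animals were pooled, so the p-values rest on a spread among arrays that may be partly technical. Since the mice and not only their Treg cells carry the genotype label, an effect within Treg cells and one of their surroundings cannot be told apart.

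Values are log2 levels relative to the middle Batf+/+ array of each probe set. They show how a gene differs between arrays and not how abundant its transcript is, so whether a receptor is expressed at all in these cells could not be read, nor could the defining markers of Treg cells be shown present. Of 6 Treg and T cell markers 0 passed the limma threshold, 4 with a difference below 0 and 2 above. Foxp3 differed by -0.12 ± 0.08 (log2, SE), with an adjusted p of 0.892, and at an unadjusted p below 0.05 Ikzf2 (Helios) was at -0.51 (limma adjusted p = 0.0526) and Il2ra (CD25) at 0.21 (0.394). The arrays of 4 of the 6 did not overlap between genotypes, 3 lower and 1 higher. Over all genes 12% showed such a separation, 6.55% lower and 5.5% higher, and 7.69% had an unadjusted p below 0.05 in limma. The part of these Treg and T cell markers in the receptor results was not tested. Batf, with 1 probe set, had -3.13, -3.16 and -2.37 on Batf-/- arrays 1, 2 and 3, against -0.13, 0.00 and 0.14 on Batf+/+ arrays 1, 2 and 3. Of 26 markers of 6 other cell types (B, myeloid, dendritic, CD8 T, NK and erythroid cells) 21 were measured, and 0 passed the limma threshold, with 1 at an unadjusted p below 0.05. The mean of each of these lists lay between -0.19 and 0.32 on the Batf-/- arrays and between -0.25 and 0.14 on the Batf+/+ arrays.

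Rora, which encodes the orphan receptor RORα, fell in Batf-/- Treg cells, and it was the 1 receptor gene of 40 to pass the threshold in a fit on genotype alone. With the array number as a replicate block, 3 of the 40 passed, Rora, Nr3c2 and Nr4a2, all lower. In limma on genotype alone over all genes, with Benjamini-Hochberg adjustment, 1.14% of the 18193 genes passed at an adjusted p below 0.05, 0.83% lower and 0.313% higher in Batf-/- cells, and 1 of 40 is too near to that share to say anything of the family. With the block 1.61% of all genes passed, 1.11% lower and 0.5% higher. The 40 receptors were evenly divided, with 20 differences below 0 and 20 above. Their median log2 difference was 0.0034, against 0.0047 over all genes, and the median size of the difference regardless of sign was 0.07 in both. The size was under 0.25 in 36 receptors (90.0%), against 93.7% of all genes. At an unadjusted p below 0.05 there were 4 receptors lower (Rora, Nr3c2, Nr2f6 and Thra) and 0 higher, where 7.69% of all genes met that limit, 4.44% lower and 3.25% higher. Arrays of the genotypes did not overlap in 6 receptors, 4 lower and 2 higher, where 12% of all genes showed such a separation (6.55% lower and 5.5% higher).

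**Figure D1:**
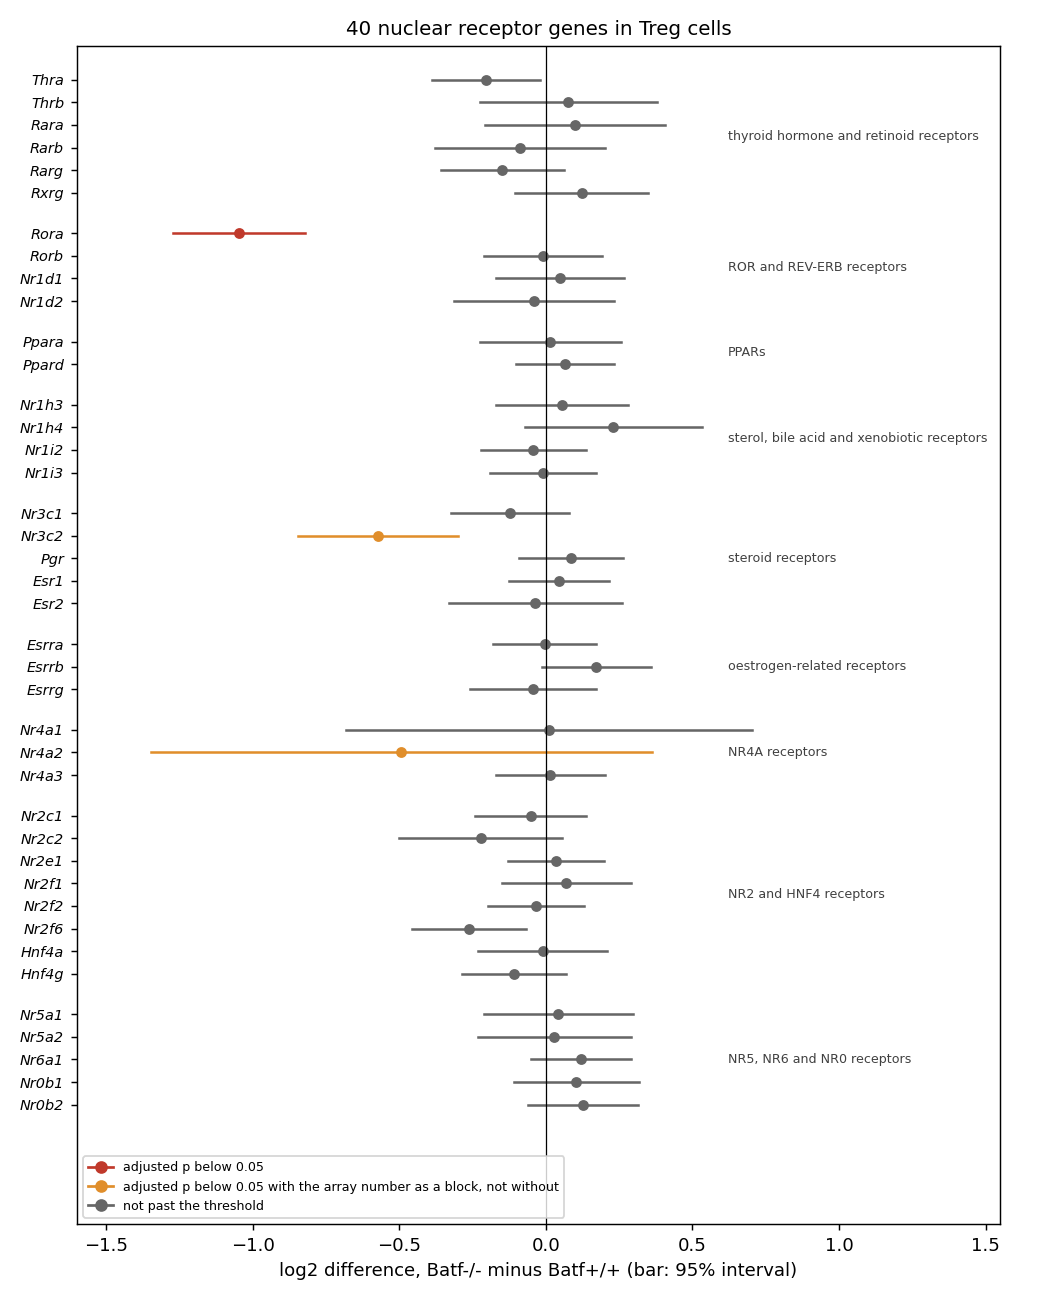
Log2 difference (Batf-/- minus Batf+/+, x axis) of 40 receptor genes, grouped by class, with 95% intervals from limma without a block. Rora, at -1.05, is the gene past the threshold, Nr3c2 and Nr4a2 did not pass in this fit and passed with the array number as a block, and 36 of the 40 points lie within 0.25 of 0.

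RORα and the related RORβ (Rorb) activate transcription from elements that the REV-ERB repressors Nr1d1 and Nr1d2 also occupy. As the mean of its 9 probe sets, Rora had -0.93, -1.04 and -1.26 on Batf-/- arrays 1, 2 and 3, against 0.03, 0.00 and -0.13 on the Batf+/+ arrays. Every Batf-/- array lay well below every Batf+/+ array. The log2 difference was -1.05 ± 0.10 (SE, n = 3 arrays per genotype, 95% interval -1.27 to -0.82, limma adjusted p = 0.00148), a 2.07-fold decrease. By arrays of the same number it was -0.96, -1.04 and -1.14. The difference ranked as the 46th lowest of the 18193 genes. RNA of bulk cells was measured, so fewer cells that express a gene and less RNA in each cell cannot be told apart, and the part of the other cell types' markers in this result was not tested.

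The 9 probe sets of Rora did not give one value, and the mean understates what the larger group of them shows. When all 45037 non-control probe sets were tested, 5 of the 9 passed the threshold, all lower (0.531% of all probe sets passed, 0.402% lower). Probe set 1420583_a_at had -1.38, -1.73 and -2.30 on Batf-/- arrays 1, 2 and 3, against 0.21, 0.00 and -0.12 on the Batf+/+ arrays (log2 difference -1.83 ± 0.22 SE, limma adjusted p = 0.0153). Probe set 1436326_at had -1.14, -2.05 and -2.08 on Batf-/- arrays, against 0.09, 0.00 and -0.07 on Batf+/+ arrays (-1.76 ± 0.23, limma adjusted p = 0.0252). In all 5 that passed, array 1 was the least lowered of the Batf-/- arrays.

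Probe set 1436325_at had the smallest adjusted p of the 9, with -1.58, -1.95 and -1.90 on Batf-/- arrays, against 0.04, 0.00 and -0.25 on Batf+/+ arrays (log2 difference -1.74 ± 0.13 SE, limma adjusted p = 0.00184). Probe set 1424034_at had -1.48, -1.68 and -2.13 on Batf-/- arrays, against 0.00, 0.03 and -0.22 on Batf+/+ arrays (-1.70 ± 0.17, limma adjusted p = 0.00583). Probe set 1455165_at had -1.49, -1.57 and -1.95 on Batf-/- arrays, against 0.01, 0.00 and -0.46 on Batf+/+ arrays (-1.52 ± 0.17, limma adjusted p = 0.0112). In these 5 probe sets the Batf-/- arrays spanned -2.30 to -1.14 and the Batf+/+ arrays -0.46 to 0.21, and the decreases were 2.87-fold to 3.56-fold.

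The other 4 probe sets did not pass. Probe set 1458129_at had -0.86, -0.68 and -0.55 on Batf-/- arrays, against 0.28, 0.00 and -0.51 on Batf+/+ arrays (log2 difference -0.62 ± 0.19 SE, limma adjusted p = 0.489), so its genotypes were apart, but only narrowly, as were those of 11.1% of all probe sets (5.69% lower). Probe set 1424035_at had -0.46, 0.10 and -0.19 on Batf-/- arrays, against 0.02, -0.04 and 0.00 on Batf+/+ arrays (-0.18 ± 0.14, limma adjusted p = 0.99). The genotypes of that probe set overlapped. Probe set 1458145_at had 0.00, 0.11 and -0.23 on Batf-/- arrays, against -0.14, 0.00 and 0.20 on Batf+/+ arrays (-0.06 ± 0.12). Probe set 1441085_at had -0.01, 0.06 and -0.04 on Batf-/- arrays, against -0.26, 0.00 and 0.30 on Batf+/+ arrays (-0.01 ± 0.14). Both overlapped widely. Per the platform annotation the 9 probe sets derive from 7 sequence records, 2 of which gave a pair each. One pair agrees, 1436325_at and 1436326_at, at -1.74 and -1.76. The other does not, with -1.70 for 1424034_at and -0.18 for 1424035_at. Which transcripts or exons the probe sets lie in was not analysed here, and with centred values a dim probe set cannot be told from a bright one.

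**Figure D2:**
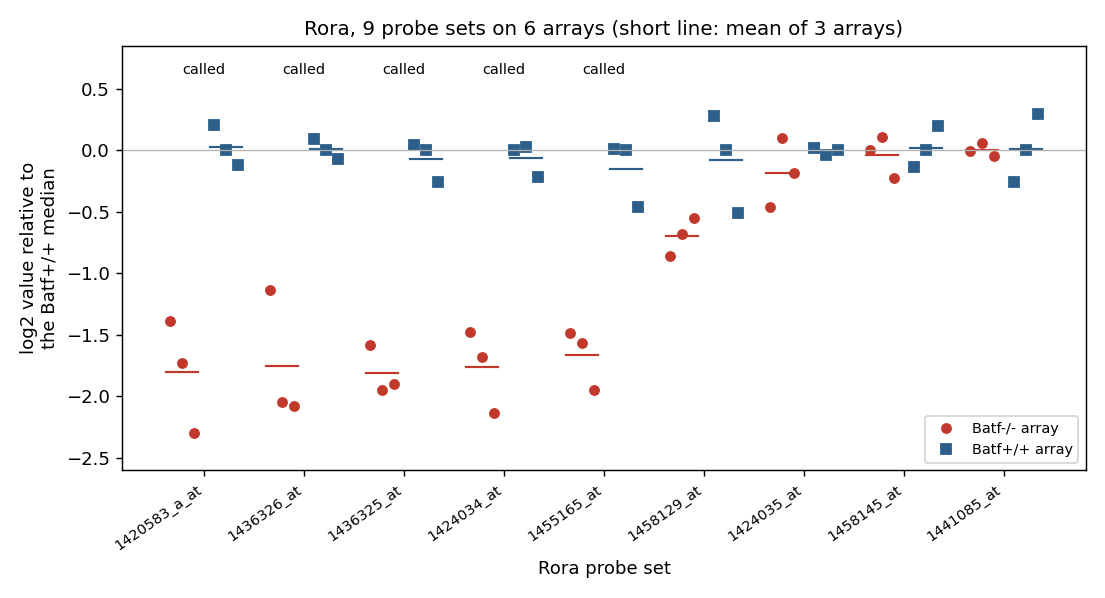
Log2 value relative to the Batf+/+ median (y axis) of the 9 Rora probe sets on Batf-/- arrays (circles) and Batf+/+ arrays (squares), in array order 1 to 3 from left to right, with a short line at each mean. The 5 probe sets marked as called lie at -1.14 or below on every Batf-/- array, 1458129_at is lowered less, and the other 3 overlap between genotypes.

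The region before the start of Rora is shown because Rora is the receptor that fell and Batf pairs with Jun at AP-1 sites. These are the 250 bases upstream of the transcript start in RefSeq, on the plus strand of GRCm38.p6, chr9:68653536-68653785, and any AP-1 match would stand in capitals.
Rora upstream: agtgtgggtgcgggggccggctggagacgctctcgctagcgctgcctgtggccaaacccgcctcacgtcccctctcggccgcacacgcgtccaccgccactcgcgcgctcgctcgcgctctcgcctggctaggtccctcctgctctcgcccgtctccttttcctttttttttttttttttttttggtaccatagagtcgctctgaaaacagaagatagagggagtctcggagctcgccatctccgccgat
The AP-1 letters TGANTCA and the related TGACGTCA, read on both strands, had 0 matches each, which says only that these letters are not in this stretch. Over all 32851 RefSeq windows of 300 bases around a start, TGANTCA matched in 7.81% and TGACGTCA in 1.79%. Of the 55 windows of 38 receptor genes, 3 held TGANTCA (5.45%), in Esrrg, Nr1i3 and Rorb, and 2 held TGACGTCA (3.64%), in Nr2e1 and Nr6a1.

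The remaining 3 genes of the ROR and REV-ERB class did not pass. Rorb, known from brain and retina, had a log2 difference of -0.01 (95% interval -0.21 to 0.19), Nr1d1 (REV-ERBα) one of 0.05 (-0.17 to 0.27) and Nr1d2 (REV-ERBβ) one of -0.04 (-0.31 to 0.23, limma adjusted p = 1 in each after rounding). The 2 probe sets of Nr1d2 pointed apart, at -0.26 and 0.18, neither past the threshold. Each of these intervals lies above the whole interval of Rora, although the difference between the receptors was not itself tested.

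RORα and REV-ERB proteins are part of the circadian clock, in which they act on Arntl (BMAL1). Of 18 clock genes listed, 17 were measured and 0 passed the threshold in limma, with 4 at an unadjusted p below 0.05, all of them lower in Batf-/- cells, where 4.44% of all genes were lower at that limit. The differences lay below 0 in 12 and above 0 in 5, with a median of -0.04 on the log2 scale, against 0.0047 over all genes. The 4 were named after their values were seen. Arntl, the activator at the core of the clock, had -0.26, -0.39 and -0.36 on Batf-/- arrays 1, 2 and 3, against 0.08, 0.00 and -0.14 on Batf+/+ arrays (log2 difference -0.31 ± 0.08 SE, limma adjusted p = 0.205). Its Batf-/- arrays all lay below its Batf+/+ arrays. Dbp, a clock output factor, had a difference of -0.24 ± 0.08 (limma adjusted p = 0.393).

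Nfil3, a repressor that competes with Dbp at its sites, had -0.72, -1.17 and -1.98 on Batf-/- arrays, against 0.00, 0.14 and -1.21 on Batf+/+ arrays (log2 difference -0.94 ± 0.39 SE, limma adjusted p = 0.579). Array 3 was the lowest in both genotypes, and with the array number as a replicate block the limma adjusted p was 0.0193. Bhlhe40, a repressor of clock activators that is also induced on T cell activation, had -1.26, -1.28 and -1.61 on Batf-/- arrays, against 0.00, 0.09 and -1.42 on Batf+/+ arrays (-0.94 ± 0.34, limma adjusted p = 0.455). Only Batf+/+ array 3 overlapped with the Batf-/- arrays. By arrays of the same number the difference was -1.26, -1.37 and -0.19, and with the block the limma adjusted p was 0.126. Without Batf+/+ array 3, the one that overlapped, but with Batf-/- array 3 kept, the difference was -1.43 (limma adjusted p = 0.00309). No other of the 12 alternatives called Bhlhe40.

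The element that RORα and REV-ERB share is shown for Arntl, its textbook target in the clock. Of 14 clock genes with a RefSeq window, 2 held the letters ANTAGGTCA on either strand, Arntl and Nfil3. The search first asked for a further A in front, which matched in Arntl alone of these genes and in 0.219% of all windows, and it was shortened after that result was seen. In Arntl the match stands in capitals within 29 bases of the plus strand of GRCm38.p6, chr7:113207529-113207557, and starts 28 bases downstream of an annotated transcript start.
Arntl site: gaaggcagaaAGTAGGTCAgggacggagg
The shorter letters occurred in 0.661% of all RefSeq windows and in 0 of the 55 windows of receptor genes, Rora included. The half-site AGGTCA, which both contain, occurred in 16.3% of all windows and in 9 of the 55 windows of receptor genes (16.4%). A match is a description of the sequence and no evidence of binding in these cells.

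**Figure D3:**
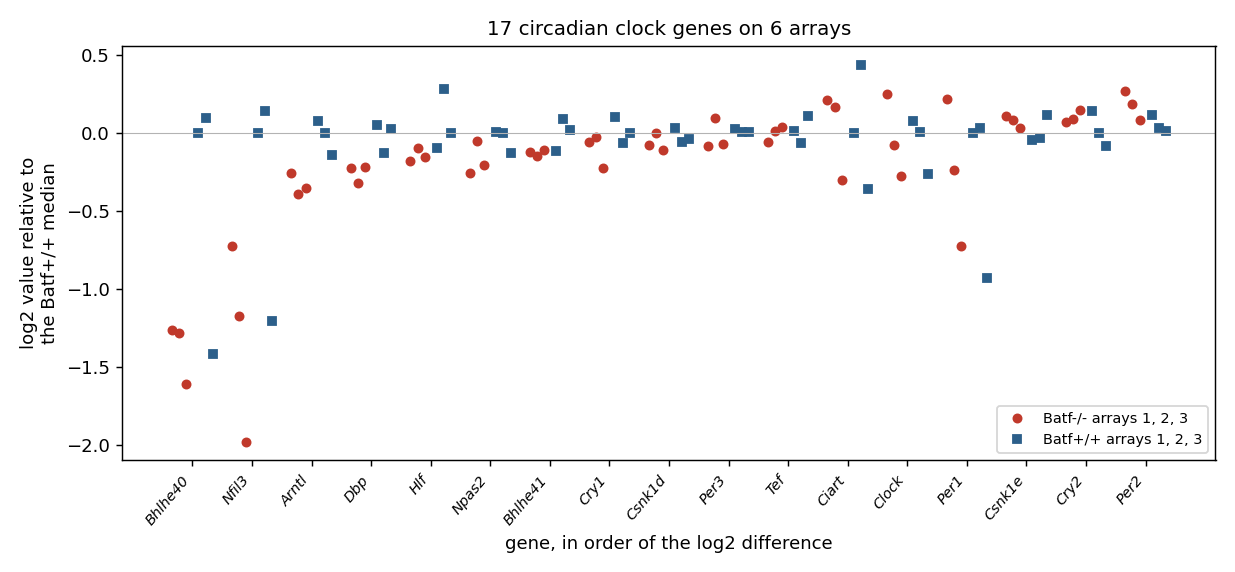
Log2 value relative to the Batf+/+ median (y axis) of 17 clock genes, ordered by their log2 difference, on Batf-/- arrays 1 to 3 (circles) and Batf+/+ arrays 1 to 3 (squares). Bhlhe40 and Nfil3 lie low on the Batf-/- arrays and also on Batf+/+ array 3, while Arntl and Dbp separate by genotype with small differences.

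Steroid receptors bind their hormone in the cytoplasm or nucleus and then act on hormone response elements. Nr3c2, the mineralocorticoid receptor, which binds aldosterone and also glucocorticoids, had the lowest difference of the family after Rora. Its 1 probe set had -0.48, -0.48 and -0.58 on Batf-/- arrays 1, 2 and 3, against 0.00, 0.34 and -0.15 on Batf+/+ arrays. The Batf-/- arrays were close together and all below the Batf+/+ arrays, which spread more widely (SD 0.06 in Batf-/- and 0.25 in Batf+/+ cells). The log2 difference was -0.57 ± 0.12 (SE, 95% interval -0.85 to -0.30, unadjusted p = 0.00107, limma adjusted p = 0.0739), and the gene did not pass the threshold over all genes.

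The array numbers of the titles were taken as pairs on the basis of the values, with pair 2 the least clear. Within pairs Nr3c2 differed by -0.48, -0.81 and -0.43. With the number as a replicate block its limma adjusted p was 0.0366. As 1 probe set among all probe sets, Nr3c2 had an adjusted p of 0.183, and of 0.0925 with the block.

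Nr3c1, the glucocorticoid receptor, which most lymphocytes carry, had a log2 difference of -0.12 ± 0.09 (SE, 95% interval -0.32 to 0.08, limma adjusted p = 0.932). It had -0.03, -0.10 and -0.21 on Batf-/- arrays, against 0.13, 0.01 and -0.10 on Batf+/+ arrays, and the groups overlapped. Its 6 probe sets lay between -0.32 and 0.19, 5 of them below 0. The receptors for progesterone (Pgr) and oestrogen (Esr1 and Esr2) had differences of 0.09, 0.04 and -0.04 and did not pass. Of 15 genes of the glucocorticoid response and of receptor chaperones, 14 were measured, and 0 passed the limma threshold, with 0 at an unadjusted p below 0.05 and differences from -0.16 to 0.23.

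The NR4A receptors are orphan receptors without a usable ligand pocket whose genes respond within a short time to T cell receptor signals. Nr4a1 (Nur77) and Nr4a2 (Nurr1) varied more from array to array than any other receptors measured, and in both genes array 3 was the low one of each genotype. Nr4a1 had 0.11, -0.04 and -0.87 on Batf-/- arrays 1, 2 and 3, against 0.00, 0.08 and -0.91 on Batf+/+ arrays. Arrays of the same number lay close together, with differences of 0.11, -0.12 and 0.04 within pairs and 0.01 ± 0.31 between the genotype means (log2, SE, adjusted p = 1 in limma). Without a block the 95% interval of -0.68 to 0.70 leaves room for a change of either sign. In the fit with the array number as a replicate block, the difference of Nr4a1 was 0.01 ± 0.07 (log2, SE) and did not pass.

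Nr4a2 had -0.28, -0.48 and -1.58 on Batf-/- arrays 1, 2 and 3, against 0.04, 0.12 and -1.03 on Batf+/+ arrays. The groups overlapped, yet each Batf-/- array lay below the Batf+/+ array of the same number, by -0.33, -0.60 and -0.55. Without a block the log2 difference was -0.49 ± 0.38 (SE, 95% interval -1.35 to 0.36, limma adjusted p = 0.949). With the array number as a replicate block it was -0.49 ± 0.08 (SE, limma adjusted p = 0.0343), a 1.41-fold decrease that passed the threshold. Of its 6 probe sets, 4 lay between -0.999 and -0.20 and the other two at 0.01 and 0.04, and none passed alone, with the lowest adjusted p under the block at 0.0654. Nr4a3 (Nor1) had a difference of 0.02 ± 0.08 (limma adjusted p = 1), and its values on array 3 did not stand apart (0.02 in Batf-/- and 0.00 in Batf+/+ cells).

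Many other early response genes, but not all, were also low on array 3. Of 16 early genes listed beside the NR4A receptors, all were measured, and 12 were lower on array 3 than on the mean of arrays 1 and 2 in both genotypes, against 23.5% of all genes. The other 4, Egr2, Egr3, Ier3 and Cd5, were higher there in both, as were 40.5% of all genes, with Ier3 at 1.18 in Batf-/- cells and 0.23 in Batf+/+ cells. Fosb, an AP-1 subunit named after its values were seen, was lower there by -2.05 in Batf-/- cells and -2.33 in Batf+/+ cells, set beside -0.91 and -0.95 for Nr4a1 and -1.20 and -1.12 for Nr4a2. The mean of the 16 genes was 0.18, 0.06 and -0.24 on Batf-/- arrays 1, 2 and 3, against 0.02, 0.05 and -0.48 on Batf+/+ arrays. Between genotypes 0 of the 16 passed the limma threshold, with a median log2 difference of 0.09. At an unadjusted p below 0.05 in limma, 1 was lower and 2 were higher, against 4.44% and 3.25% of all genes. The labels do not say what the arrays of a number share, and the part of that in the values of Nr4a2 was not tested.

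**Figure D4:**
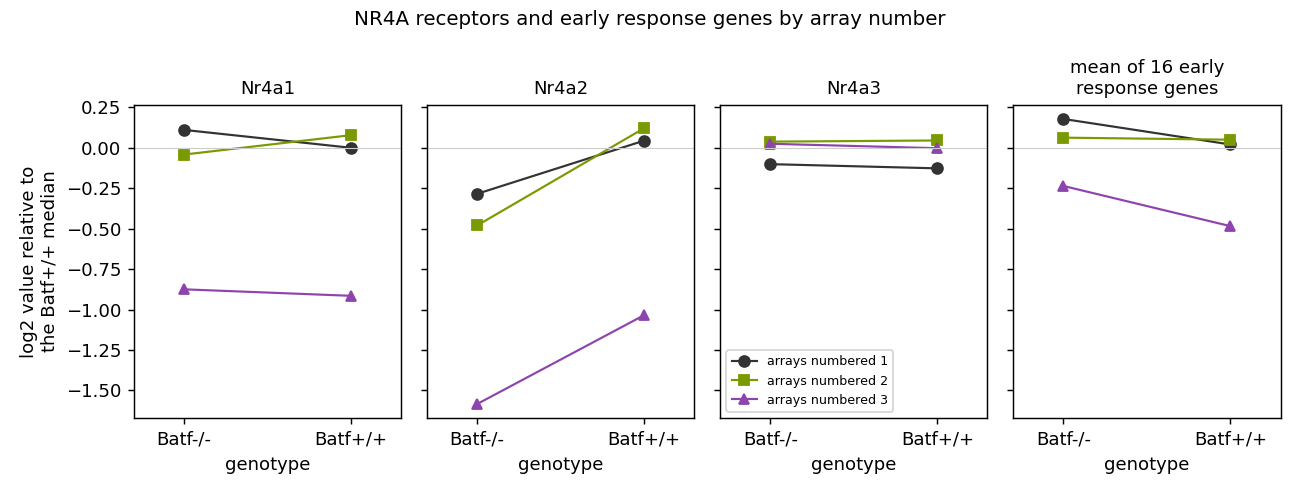
Log2 value relative to the Batf+/+ median (y axis) of the 3 NR4A receptors and of the mean of 16 early response genes, Batf-/- at the left and Batf+/+ at the right of each panel, with lines joining arrays of the same number. Array 3 is low in both genotypes for Nr4a1 and Nr4a2, and for Nr4a2 each Batf-/- array lies below its Batf+/+ array, by -0.33, -0.60 and -0.55.

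Receptors for thyroid hormone and retinoids bind DNA with an RXR partner. None of the 6 passed the threshold, and their differences lay between -0.20 and 0.12. Thra, thyroid hormone receptor α, had -0.14, -0.21 and -0.17 on Batf-/- arrays 1, 2 and 3, against 0.15, -0.05 and -0.02 on Batf+/+ arrays. The Batf-/- arrays lay below the Batf+/+ arrays by a small margin (log2 difference -0.20 ± 0.08 SE, unadjusted p = 0.0343, limma adjusted p = 0.546). Its 3 probe sets were all below 0, from -0.26 to -0.14. Thrb had a difference of 0.08 (95% interval -0.23 to 0.38).

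The 3 retinoic acid receptors Rara, Rarb and Rarg had log2 differences of 0.10 (95% interval -0.21 to 0.41), -0.09 (-0.38 to 0.20) and -0.15 (-0.36 to 0.06). Rara, the form best known in T cells, had -0.06, -0.05 and 0.43 on Batf-/- arrays, against 0.11, 0.00 and -0.09 on Batf+/+ arrays, so Batf-/- array 3 alone was high. Rxrg, an RXR form of muscle and brain, had -0.10, 0.21 and 0.21 on Batf-/- arrays, against -0.08, 0.04 and 0.00 on Batf+/+ arrays, and the groups overlapped (0.12 ± 0.10 SE, limma adjusted p = 0.968).

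Of 19 genes of retinoid metabolism and response 17 were measured, of which 1 fell and 1 rose, where 0.83% of all genes fell and 0.313% rose. The median log2 difference of the list was -0.08. Hic1, a transcriptional repressor induced by retinoic acid, had -0.64, -0.45 and -0.43 on Batf-/- arrays, against -0.07, 0.00 and 0.05 on Batf+/+ arrays (-0.50 ± 0.085 SE, limma adjusted p = 0.0281). Tgm2, a transglutaminase that retinoic acid also induces, had 0.58, 0.66 and 1.17 on Batf-/- arrays, against 0.10, -0.03 and -0.04 on Batf+/+ arrays (0.79 ± 0.14, limma adjusted p = 0.0382). Both separated by genotype, in opposite directions. Hic1 lost its call without any 1 of the Batf+/+ arrays and without Batf-/- array 1 or 2 (adjusted p up to 0.130), Tgm2 without any 1 of the Batf+/+ arrays and without Batf-/- array 2 (up to 0.158), and both after quantile normalization (0.207 and 0.0606). Crabp2, a carrier of retinoic acid named after its value was seen, had a difference of 0.41 ± 0.09, with a limma adjusted p of 0.0880, and of 0.0431 with the replicate block.

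The RXR partners outside the 42 genes, Rxra and Rxrb, had log2 differences of 0.04 ± 0.09 and 0.09 ± 0.08 (SE, limma adjusted p = 1 and 0.988). Vdr and Pparg, which pair with them, were higher in Batf-/- cells by 1.89 and 1.36, while Rora was lower by 1.05, on the same log2 scale.

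PPARs sense fatty acids and control their oxidation. Ppara had a log2 difference of 0.02 (95% interval -0.22 to 0.26) and Ppard one of 0.07 (-0.10 to 0.23). Ppard had 0.03, 0.03 and 0.16 on Batf-/- arrays, against -0.02, 0.03 and 0.02 on Batf+/+ arrays, where 2 of the Batf-/- values barely exceeded the highest Batf+/+ value. Of 15 genes of the PPAR response 12 were measured, and 1 rose, where 0.313% of all genes did. Plin2, the coat protein of lipid droplets, had 0.44, 0.35 and 0.42 on Batf-/- arrays, against -0.14, 0.00 and 0.03 on Batf+/+ arrays (0.44 ± 0.08 SE, limma adjusted p = 0.0365). Its call was lost without any 1 of the 6 arrays (adjusted p 0.0732 to 0.144) and after quantile normalization (0.165). The probe set of Plin2 did not pass over all probe sets (limma adjusted p = 0.107).

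Receptors for sterols, bile acids and foreign compounds are best known from liver, gut and macrophages. Nr1h4 (FXR), the bile acid receptor, had the highest difference of the 40 genes. It had 0.00, 0.35 and 0.33 on Batf-/- arrays 1, 2 and 3, against -0.22, 0.00 and 0.22 on Batf+/+ arrays, with overlap (log2 difference 0.23 ± 0.13 SE, limma adjusted p = 0.852). The oxysterol receptor Nr1h3 (LXRα) had a difference of 0.05 (95% interval -0.17 to 0.28), and the xenobiotic receptors Nr1i2 (PXR) and Nr1i3 (CAR) had -0.04 and -0.01. Of 13 measured genes of the LXR response, such as the cholesterol exporters Abca1 and Abcg1, 0 passed the limma threshold, with 0 at an unadjusted p below 0.05 and differences from -0.14 to 0.19.

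Oestrogen-related receptors bind no oestrogen and drive genes of mitochondrial metabolism. Esrra, the form with the broadest expression, had a log2 difference of 0.00 (95% interval -0.18 to 0.17) and Esrrg one of -0.04. Esrrb, known from embryonic stem cells, had 0.08, 0.27 and 0.25 on Batf-/- arrays 1, 2 and 3, against -0.04, 0.06 and 0.06 on Batf+/+ arrays. Its Batf-/- arrays all lay above, by a small margin, and its 3 probe sets were close together at 0.17 to 0.18, but the difference of 0.17 ± 0.08 (SE, limma adjusted p = 0.721) did not pass.

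In the NR2 and HNF4 class 8 of 9 genes were measured and none passed. Nr2f6, an orphan receptor that in mice restrains cytokine genes of Th17 cells, had -0.36, -0.20 and -0.27 on Batf-/- arrays 1, 2 and 3, against 0.07, -0.13 and 0.02 on Batf+/+ arrays. The genotypes did not overlap, and both of its probe sets were below 0, at -0.29 and -0.23, but the log2 difference of -0.26 ± 0.09 (SE, unadjusted p = 0.0137, limma adjusted p = 0.358) did not pass. Nr2c2 (TR4) had a difference of -0.22 ± 0.12 (limma adjusted p = 0.819), with 6 probe sets from -0.80 to 0.19. The COUP-TF genes Nr2f1 and Nr2f2, Nr2c1 (TR2), the neural factor Nr2e1 and the gut and liver factors Hnf4a and Hnf4g lay between -0.11 and 0.07.

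The 5 genes of the NR5, NR6 and NR0 class, known mainly from gonads, adrenal gland, germ cells and liver, all lay slightly above 0 and none passed. Nr5a1 (SF-1), Nr5a2 (LRH-1) and Nr0b1 (DAX-1) had log2 differences of 0.04, 0.03 and 0.10. Nr0b2 (SHP), which lacks a DNA-binding domain and represses other receptors, had -0.01, 0.09 and 0.14 on Batf-/- arrays 1, 2 and 3, against -0.16, 0.01 and 0.00 on Batf+/+ arrays. The groups overlapped (log2 difference 0.13 ± 0.08 SE, limma adjusted p = 0.905). Nr6a1 (GCNF) had 5 probe sets from -0.08 to 0.36, none of which passed.

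**Figure D5:**
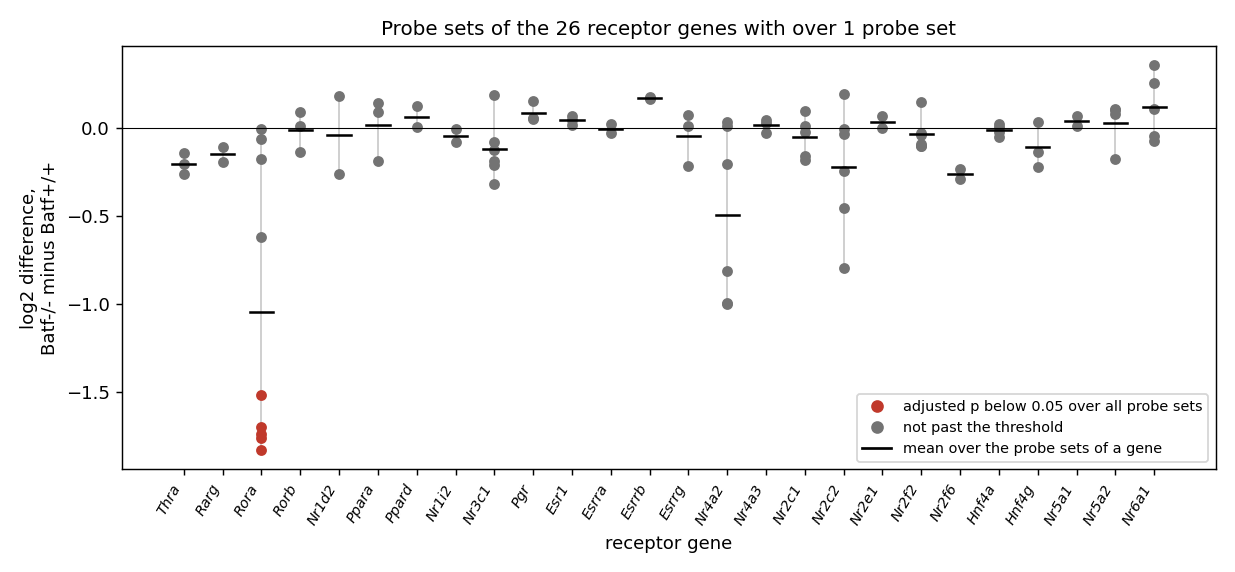
Log2 difference (Batf-/- minus Batf+/+, y axis) of every probe set of the 26 receptor genes with more than 1, with a bar at the mean of each gene. The points past the threshold are 5 of the 9 Rora probe sets, and Rora, Nr4a2 and Nr2c2 have the widest spread between probe sets.

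Outside Rora, 0 of 99 receptor probe sets passed in limma over all probe sets, with 6 lower and 3 higher at an unadjusted p below 0.05 (6.3% of all probe sets, 3.42% lower and 2.88% higher). The coregulators through which nuclear receptors act also gave no call. Of 22 listed, such as the coactivators Ncoa1 and Ncoa3 and the corepressor Nrip1, 20 were measured and 0 passed the limma threshold, with 0 at an unadjusted p below 0.05, differences from -0.18 to 0.25 and a median log2 difference of -0.03.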

How the data were processed

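The values were deposited by the authors as 1 log2 value per probe set and array, made with RMA, of unstated version and log base, as listed per the submitters' processing notes. Base 2 was assumed, as RMA gives it. In all 45101 probe sets the middle Batf+/+ value is exactly 0, a centring that no label records and that removes absolute levels, so no background filter was possible. Probe sets were named by the platform annotation (34945 with 1 gene, 932 with several, 64 controls), and a gene is the mean of its probe sets. Genotypes were compared with limma 3.58.1 in R 4.3.3 (lmFit, eBayes, genotype as the only term) over 18193 genes, and over 45037 probe sets, with Benjamini-Hochberg adjustment; a call is an adjusted p below 0.05. The fit on genotype alone was tested on simulated data with independent noise on each array, and the fit with the block was not. Same-numbered arrays deviated together (correlations 0.407, 0.154 and 0.413 across genes), against -0.413 to 0.0491 for arrays of different numbers. Deviations from a genotype mean cancel over its few arrays, so high same-numbered correlations push the others down. The contrast is therefore partly built in and is no independent evidence of pairs. Each same-numbered value was above 0.1, so the numbers from the titles were taken as pairs, on the basis of the values. Pair 2 was the least clear, and calls made only with the block rest on this pairing. Members and lists were chosen with earlier results of these data known. All 42 members are named. Values on every array are given for members past the threshold or at an unadjusted p below 0.05, for each Rora probe set, and for the 4 lowest and 4 highest members, with a few more chosen after their values were seen. Called list genes are named. The number of arrays limits the precision.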

Additional observations from a re-analysis of the deposited data

How the results depend on the processing

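Under 12 alternatives the log2 difference of Rora stayed lower past the threshold, between -1.501 (median of its probe sets) and -0.78 (quantile normalization), with limma adjusted p values of 0.000460 to 0.0128. With all 6 arrays, equal weights and no block, 1 receptor gene was called. It was 2 with array weights (Rora and Nr3c2, with Nr3c2 at a limma adjusted p of 0.0312) and 3 with the replicate block. Leaving out 1 array gave 1 to 2, Nr3c2 being added without Batf+/+ array 3 (adjusted p = 0.0456). Over the alternatives Nr3c2 lay between -0.68 and -0.44 and Nr4a2 between -0.87 and -0.09, the last without Batf-/- array 3. The 5 called Rora probe sets, which were also the only receptor probe sets called, numbered 1 to 5 when 1 array was left out: 1 without Batf+/+ array 1 or 2 (1436325_at each time), 3 without Batf+/+ array 3 or Batf-/- array 2. Beyond Nr3c2 and Nr4a2 the block changed no receptor's call. The fits that left out 1 array have fewer arrays and fewer degrees of freedom. The fit with the block keeps every array but also has fewer degrees of freedom. Leaving out probe sets that may match several sequences left 35 receptor genes, kept 4 of the called Rora probe sets and gave no value for Tgm2. Tgm2 was not called with the median of its probe sets (0.0615). Of all genes 208 were called, against 80 under quantile normalization. Quantile normalization was run on values already centred on the Batf+/+ median, and it also moved the log2 difference of Batf from -2.89 to -2.01. The part of that step in the lower count and in the lost calls was not tested. Dropping Batf+/+ array 1 gave 109, and dropping Batf+/+ array 2 gave 105, so the shares of all genes given beside the receptor counts move with these choices. With centred values, signal over background is unknown.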
